A study of Mus musculus with 6 samples.

Results

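The small leucine-rich proteoglycans (SLRPs) are a family of secreted matrix proteins, and 9 of their genes were examined here: *Dcn*, *Bgn*, *Lum*, *Fmod*, *Prelp*, *Aspn*, *Ogn*, *Podn* and *Omd*. They were selected by gene symbol from the family, with earlier results of these data in view, so that the difference of *Dcn* between the groups was already known when the family was picked. The values of *Piezo1* cKO against control are therefore given below as a description of these genes. Of the 9 symbols, 8 were found among the 20654 genes of the count table, and *Prelp* was not analysed here.

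RNA-seq was performed on muscle satellite cells (MuSCs), the stem cells of skeletal muscle, from C57BL/6 mice. The cells were sorted as VCAM1-positive and as negative for CD31, CD45 and Sca1, and were kept for 3 d in growth medium on Matrigel. There are 3 control libraries, labelled wild type, and 3 labelled *Piezo1* cKO, called cKO below. The cKO mice came from a cross of mice with a floxed *Piezo1* allele and the *Pax7*CreERT2/+ line, whose tamoxifen-inducible Cre acts in *Pax7*-expressing cells. The control of the RNA-seq comparison, labelled wild type, is given by the study as *Pax7*CreERT2/+, so that the Cre was in both groups. The medium of both groups held 4-OH TMX, the active form of tamoxifen. The mice received tamoxifen before isolation, and their age is not given in the sources used here. Whether each library comes from 1 mouse is not stated, so the tests measure the spread between these libraries, which may be partly technical.

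SLRPs have a core protein built of leucine-rich repeats, and most carry chondroitin, dermatan or keratan sulphate chains. They bind collagen fibrils, set the width and spacing of the fibrils, and hold growth factors such as TGF-beta in the matrix. In skeletal muscle, decorin and its relatives lie in the connective tissue around myofibres. Fibroblasts are their main source, and cultured myogenic cells are known to make decorin and biglycan too. Decorin also binds myostatin, the growth factor that limits muscle mass.

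Counts are unique molecular identifiers (UMIs), tags that mark each cDNA molecule at the 3′ end of the transcript, and 1 count thus stands for 1 molecule whatever the length of the gene. Control libraries 1 to 3 held 740936, 931168 and 891531 counts in total, and cKO libraries 1 to 3 held 810096, 726378 and 769295. Levels are given as CPM, the counts of a gene scaled to library size with the TMM factors of edgeR. On this scale the floor of 3 counts lay at 3.26 CPM in the deepest library and at 4.20 CPM in control 1. Intervals and floors cover counting error only.

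The targeted gene itself, *Piezo1* (chromosome 8, 122481698 to 122551329 in GRCm38), had 11, 5 and 6 counts in control, compared with 7, 12 and 9 under the cKO label. These are 9.25 ± 5.38 and 11.9 ± 3.41 CPM (SD, n = 3 each), and the groups overlapped. The cKO label was thus not matched by a lower *Piezo1* count, although counts at the 3′ end do not show whether the deleted exons are in the transcript, so that they check the label little. Every direction below rests on the labels.

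Within the family, *Bgn* and *Dcn* held most of the counts, *Ogn* lay near the floor, and *Lum*, *Fmod*, *Aspn*, *Omd* and *Podn* were almost undetected. *Dcn* was 4.60-fold lower in the libraries labelled cKO, whereas *Bgn*, its closest relative, was 1.60-fold higher there with overlapping levels. The 8 genes summed to 100.2 ± 35.6 CPM in control against 106 ± 14.2 CPM with the cKO label (SD, n = 3 each), so the family total overlapped between the groups. The share of *Dcn* in this total was lower with the cKO label, from which nothing is read since *Dcn* was selected on this contrast. In this bulk RNA, fewer cells that express a gene and less RNA of it per cell cannot be told apart.

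**Figure D1:**
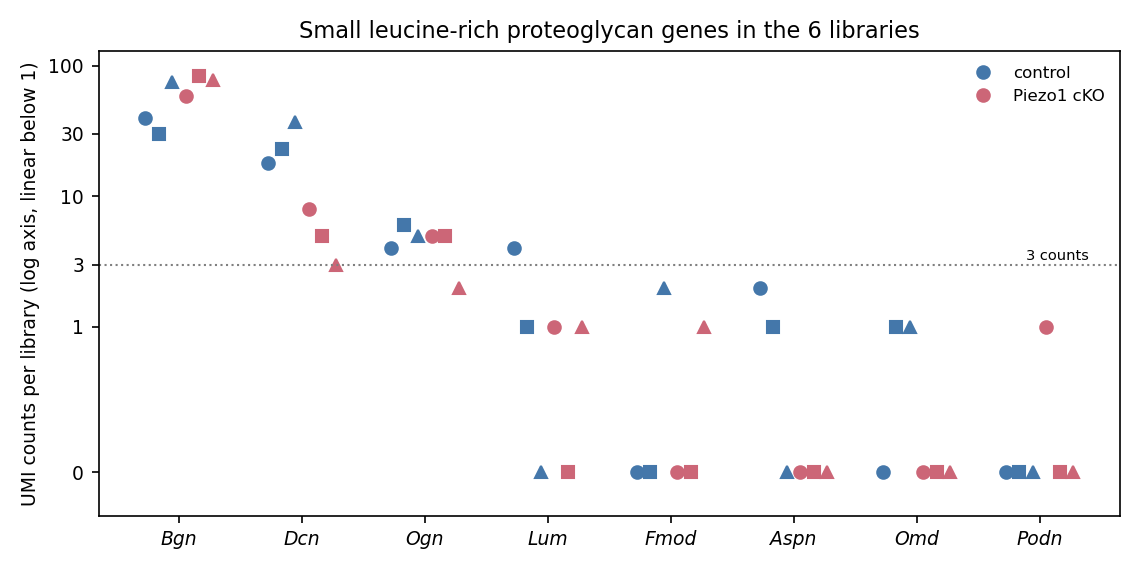
UMI counts of the 8 SLRP genes in each library, on a log axis that is linear below 1; the circle, square and triangle are libraries 1, 2 and 3, and the dotted line is the floor of 3 counts. The *Dcn* counts of the groups do not overlap, those of *Bgn* do, and the 5 genes to the right of *Ogn* lie at 4 counts or fewer.

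*Dcn* encodes decorin, which carries a chondroitin or dermatan sulphate chain, and lies on the plus strand of chromosome 10 from 97479609 to 97518143. Control libraries 1 to 3 had 18, 23 and 37 counts of it, and libraries cKO 1 to 3 had 8, 5 and 3. The levels were 25.2, 25.0 and 42.6 CPM in control against 9.88, 6.43 and 3.87 CPM. Every knockout library lay below every control library, from which nothing is read since *Dcn* was selected on this contrast. The means were 30.9 ± 10.1 and 6.73 ± 3.01 CPM (SD, n = 3 each). In edgeR the log2 fold change was -2.17 (standard error 0.38), which had rank 2 from the lowest among the 8551 genes tested. The pooled counts of 78 and 16 gave a control level 4.60 times that of the knockout libraries, with an exact 95% interval from 2.66 to 8.44. By mean CPM over all libraries *Dcn* lay at percentile 12.1 of the genes tested, among the low ones, and cKO 3 was at the floor of 3 counts.

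*Bgn* encodes biglycan, a close relative of decorin that carries the same kind of chain, and lies on the plus strand of chromosome X from 73483602 to 73495933. There were 40, 30 and 75 counts in control against 59, 83 and 77 with the cKO label. The levels were 56.0, 32.6 and 86.3 CPM in control against 72.9, 107 and 99.4 CPM. Control 3 lay above cKO 1, so the groups overlapped, while control 1 and control 2 lay below all knockout libraries. The means were 58.3 ± 26.9 and 93.0 ± 17.8 CPM (SD, n = 3 each), and edgeR gave a log2 fold change of 0.68 (standard error 0.26). This value depended on the control library left out, and was 0.37 without control 2 and 1.096 without control 3, where *Bgn* passed the threshold.

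*Ogn* encodes osteoglycin, also called mimecan, and lies on chromosome 13 from 49608046 to 49624501. It had 4, 6 and 5 counts in control against 5, 5 and 2 with the cKO label. The levels of 5.96 ± 0.493 and 5.06 ± 2.15 CPM (SD, n = 3 each) overlapped. The pooled counts of 15 and 12 gave a ratio of knockout to control of 0.848. Its exact 95% interval, which covers counting error only, ran from 0.362 to 1.94.

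**Figure D2:**
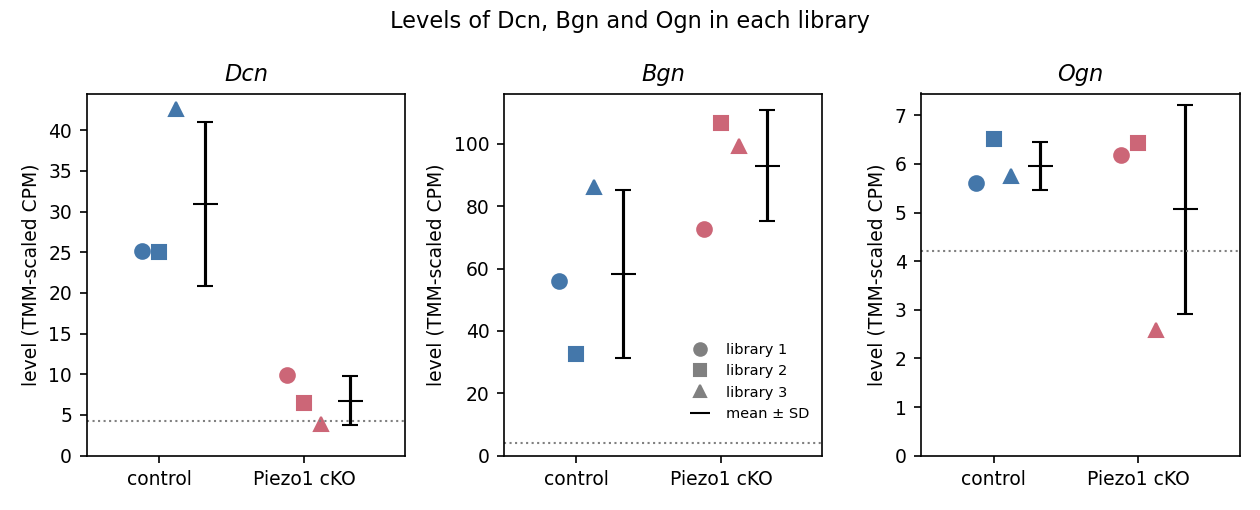
Levels of *Dcn*, *Bgn* and *Ogn* as TMM-scaled CPM in each library, with the mean and SD (n = 3) beside the points and the highest floor, 4.20 CPM, as a dotted line. *Dcn* falls from 25.0 to 42.6 CPM in control to 3.87 to 9.88 CPM in the libraries labelled cKO, *Bgn* overlaps between the groups, and *Ogn* stays close to the floor in both.

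The keratan sulphate relatives lumican (*Lum*) and fibromodulin (*Fmod*), which both bind collagen fibrils, were at or near the floor. *Lum* had 4, 1 and 0 counts in control against 1, 0 and 1, and its pooled ratio of 0.424 had an exact 95% interval from 0.0404 to 2.59. *Fmod* had 2 counts in control 3, 1 count in cKO 3 and 0 in the other libraries. *Aspn*, which encodes asporin, an SLRP that binds collagen and TGF-beta, had 2, 1 and 0 counts in control and 0 in each knockout library. *Omd*, which encodes osteomodulin, had 1 count in each of control 2 and control 3, and *Podn*, which encodes podocan, had 1 count in cKO 1. For these 5 genes a difference between the groups was not detectable at this depth.

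In control the order of the mean levels was *Bgn*, *Dcn* and *Ogn*, while *Lum*, *Aspn*, *Fmod*, *Omd* and *Podn* had too few counts to be ordered. The ranges of *Bgn* and *Dcn* overlapped between control libraries, although *Bgn* was above *Dcn* within each of them, and *Dcn* was above *Ogn* in all 3. In the libraries labelled cKO, *Bgn* was far above the others, and *Dcn* (6.73 CPM) and *Ogn* (5.06 CPM) overlapped. Divided by the length of the longest annotated transcript, the levels were 21.9 CPM per kb for *Bgn*, 6.59 for *Dcn* and 2.32 for *Ogn* in control. In the knockout libraries they were 34.9, 1.43 and 1.97 CPM per kb, so that on this scale *Ogn* stood above *Dcn*. Counts at the 3′ end do not grow with length, and the order by CPM is the more direct one.

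The filter on low counts kept 2 of the 8 genes, *Dcn* and *Bgn*, and *Dcn* passed it through the control libraries, where it is high. Over all genes, 67 of 8551 (0.784%) passed an adjusted p under 0.05 in edgeR's quasi-likelihood test, of which 40 were higher (0.468%) and 27 lower (0.316%) with the cKO label. When libraries were scaled by total counts only, 45 were higher and 18 lower. In DESeq2, which gave an adjusted p for 4007 genes, 12 were higher and 15 lower. Of the 2 SLRP genes tested, *Dcn* was among the 27 and *Bgn* was not called. Without overlap between the groups were 701 genes (8.20%) in the higher and 711 (8.31%) in the lower direction, and *Dcn* was 1 of the latter. Since the family was selected with this contrast known, nothing is read from these counts about SLRPs. In DESeq2 the log2 fold change of *Dcn* was -2.21 (standard error 0.57), and its adjusted p was set to NA by the tool's own filter on low counts.

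SLRP genes lie in clusters in the genome, and *Dcn* is the first of a row on chromosome 10. The gap from *Dcn* to *Lum* is 47.0 kb, followed by *Kera* and *Epyc*, which were not analysed here. The next tested genes beyond this row were *Btg1*, an antiproliferative gene 857 kb to the left, and *Atp2b1*, a plasma membrane calcium pump gene 1396 kb to the right of *Dcn*. *Btg1* had 63, 65 and 70 counts in control against 56, 52 and 55, and its log2 fold change was -0.20 (standard error 0.19, edgeR, adjusted p = 0.725). *Atp2b1* had 168, 210 and 197 against 170, 180 and 186 counts. Neither gene was called, and *Lum*, inside the row, was near the floor. On chromosome 13, *Ecm2*, *Aspn*, *Omd* and *Ogn* lie side by side with gaps of 11.7, 14.9 and 15.2 kb, and *Ogn* was the only one of the 4 above the floor in any library. The nearest tested genes to *Bgn* on chromosome X were *Haus7*, which encodes a spindle protein, with 61, 82 and 58 against 63, 73 and 78 counts, and *Dusp9*, which encodes a MAP kinase phosphatase, with 25, 34 and 25 against 20, 9 and 12 counts. *Dusp9* was lower in every knockout library, at a log2 fold change of -0.95 (SE 0.30), but was not called (adjusted p = 0.134, edgeR).

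Further family members were hardly present. Of the 9 other SLRP genes listed, 4 were in the table and none was tested. *Podnl1*, a relative of *Podn*, had 4, 2 and 1 counts in control and 2, 4 and 5 in the knockout libraries. *Tsku*, which encodes tsukushi, had 1 to 3 counts in every library, *Chadl* had 0 to 3, and *Ecm2* had 0 in all 6.

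*Dcn* is also a marker of fibroblasts, and it was therefore set against the counts of other fibroblast genes within each library. Per 100 counts of *Col3a1*, a fibrillar collagen, there were 16.5, 16.1 and 16.0 *Dcn* counts in control libraries 1 to 3. In cKO 1 to 3 there were 3.96, 2.31 and 1.62. Per 100 counts of *Col1a1*, which had 1 to 17 counts, the *Dcn* counts were 1800, 329 and 218 in control and 100, 167 and 150 in cKO, a far wider spread among the control libraries. Per count of *Pdgfra*, a ratio added after the values were seen, there were 4.5, 7.67 and 4.62 *Dcn* counts in control and 8, 5 and 1 in cKO, which overlapped, on 1 to 8 *Pdgfra* counts a library. Per 100 counts of the whole fibroblast list, *Dcn* had 1.43, 1.75 and 2.08 counts in control and 0.537, 0.350 and 0.193 in the knockout libraries. As a share of the counts of the 8 SLRP genes, *Dcn* made up 26.5%, 37.1% and 30.8% in control, where the exact 95% intervals ran from 16.5% at the lowest to 50.3% at the highest. In the knockout libraries it made up 10.8%, 5.38% and 3.57%, with intervals from 0.743% to 20.2%. *Bgn* made up 48.4% to 62.5% in control and 79.7% to 91.7% in the knockout libraries. As *Dcn* was selected for its own difference and *Col3a1*, the fibroblast list and *Bgn* were level or higher in cKO, nothing is read from the lack of overlap of the ratios to them.

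**Figure D3:**
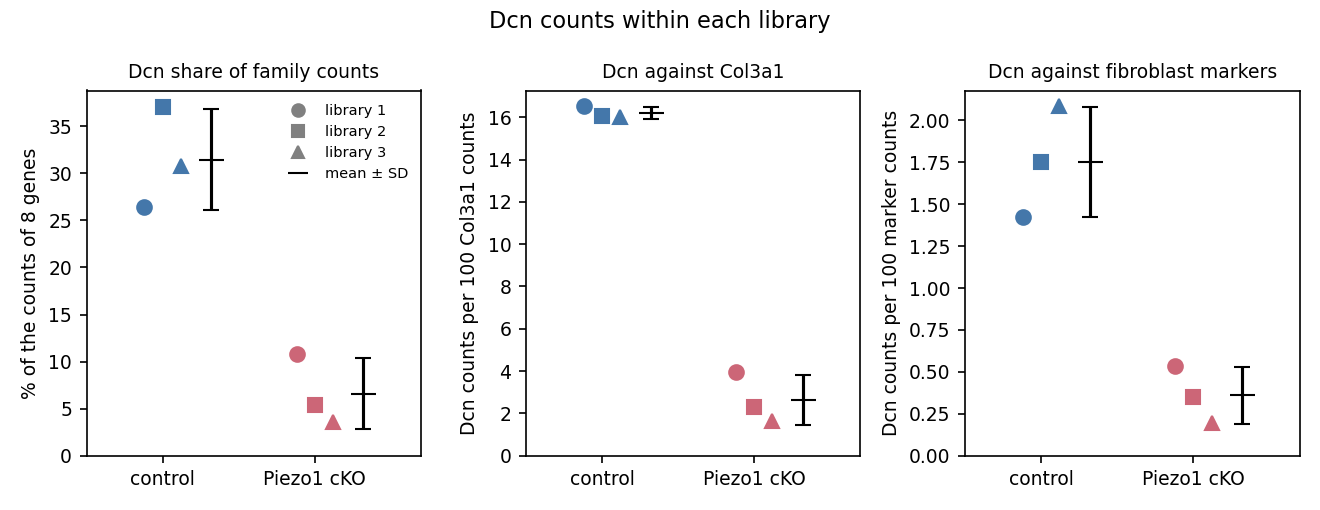
*Dcn* counts in each library as a percentage of the counts of 8 SLRP genes, per 100 *Col3a1* counts, and per 100 counts of the fibroblast marker list, with the mean and SD (n = 3). In all 3 panels the control libraries lie above the libraries labelled cKO, as the *Dcn* counts themselves do.

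The fibroblast markers were led by a few abundant genes that overlapped between the groups. Of 25 markers of fibroblasts and fibro-adipogenic progenitors, the stromal cells of muscle, 22 were in the table and 9 were tested, and 0 were called in edgeR, where the share over all genes (0.784%) would give no call among 9. An unadjusted p under 0.05 was found for 2 of the 9, and for 1019 of the 8551 genes tested. DESeq2 and limma-voom also called 0 of them, but *Col1a2*, described with the collagens below, was called higher in 5 of 14 alternatives (other filters, scalings, tools or a library left out) and *Col3a1* in 1 of 14. The median log2 fold change of the fibroblast markers was 0.084, against 0.0023 over all genes tested, with 6 above 0 and 3 below. The list summed to 1767, 1427 and 2043 CPM in control against 1841, 1839 and 2003 CPM, and the groups overlapped (p = 0.5 in a two-sided exact permutation test, whose smallest p is 0.1 for 3 against 3 libraries). Most of it was *Serpinf1*, which encodes the secreted protein PEDF, at 961 ± 135 and 1002 ± 70.1 CPM (SD, n = 3 each). *Gsn*, which encodes the actin-severing protein gelsolin, followed at a log2 fold change of 0.17 (SE 0.15), and *Tcf7l2*, a transcription factor of muscle connective tissue, was at 97.7 ± 30.4 and 91.8 ± 8.20 CPM (SD, n = 3 each). None of these genes is confined to fibroblasts.

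Of the fibroblast list, *Pdgfra*, *Ly6a*, *Col1a1* and *Pi16* were low, with a highest level of 19.6 CPM for *Col1a1* in control 3. Other genes of the list were higher, among them *Lox* at 120 CPM in control 3 and *Col3a1* at 278 CPM in cKO 2. *Pdgfra*, the receptor that marks fibro-adipogenic progenitors, had 4, 3 and 8 counts in control against 1, 1 and 3. *Ly6a*, which encodes the Sca1 antigen that the sort had selected against, went the other way, with 2, 2 and 3 counts in control and 5, 8 and 9 in the knockout libraries. *Col1a1* had 1, 7 and 17 against 8, 3 and 2 counts, and *Pi16* had 0 in all 6. *Mfap5*, named after its values were seen, had 2, 0 and 8 against 1, 0 and 0 counts. *Lox*, which encodes the collagen cross-linking enzyme lysyl oxidase, had 14, 19 and 104 against 25, 32 and 33 counts, and *Cxcl14*, a chemokine gene, 0, 0 and 8 against 2, 1 and 1, both named after their values were seen. Control 3, where *Dcn* was highest, had the highest level of 7 of the 21 fibroblast markers with any count, namely *Pdgfra*, *Col1a1*, *Mfap5*, *Cxcl14*, *Hsd11b1*, *Lox* and *Gsn*, and each other library had that of 1 to 4. Without control 3 the log2 fold change of *Dcn* was -1.87 (standard error 0.46, edgeR). The part of *Pdgfra*-positive cells in the *Dcn* difference was not tested.

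Of the marker lists of other cells, those of tenocytes, leukocytes, pericytes and satellite cells had 2, 2, 1 and 9 tested genes, too few for a call at the share over all genes (0.784%), and 0 were called in edgeR, in DESeq2 and in limma-voom. An unadjusted p under 0.05 was found for 1, 1, 1 and 3 of them. Tenocytes, the cells of tendon, are rich in SLRPs, and their transcription factor *Scx* was at 191 ± 51.2 and 210 ± 14.1 CPM (SD, n = 3 each). *Mkx*, another tendon transcription factor, had 2, 10 and 3 counts in control against 11, 11 and 11, higher in every knockout library (log2 fold change 1.21, standard error 0.48, adjusted p = 0.255, edgeR). Of the tendon matrix genes, *Thbs4* was 0 in all libraries, and *Tnmd*, which encodes tenomodulin, had 1 count in control 3 and 0 elsewhere. The tenocyte sums of 198 ± 46.0 and 226 ± 15.4 CPM overlapped. Endothelial, Schwann cell and pericyte or smooth muscle markers summed to at most 20.7, 15.4 and 103 CPM in any library, and the pericyte sum, led by *Cspg4*, was higher in every knockout library, with 84.9 ± 16.2 against 49.7 ± 9.12 CPM (SD, n = 3 each; exact permutation test, p = 0.1). Its part in the *Dcn* difference was not tested. The endothelial genes *Tie1* and *Flt1* were 0 in all libraries, and *Pecam1*, which encodes CD31, had 0 to 2 counts. *Tek* and *Egfl7* of the same list, named after their values were seen, were detected in all 6 libraries. *Tek* had 5, 3 and 1 against 3, 3 and 9 counts, and *Egfl7* had 3, 3 and 6 against 5, 3 and 2. Leukocyte markers, led by *Laptm5*, summed to 83.8 ± 6.19 and 93.9 ± 8.79 CPM. The satellite cell and myoblast markers were the most abundant, at 2920 ± 105 and 2728 ± 315 CPM, with *Myod1*, the myogenic determination factor, and *Des*, which encodes desmin, in the lead. *Pax7*, the gene whose locus carries the Cre in that line, had 10, 26 and 19 counts in control against 16, 5 and 12. Named after their values were seen, *Vcam1*, the sort antigen, was lower in every knockout library (log2 fold change -0.45, standard error 0.16, adjusted p = 0.185, edgeR), as was, in CPM, the low *Chrdl2*, with 4, 10 and 8 against 4, 3 and 1 counts. *Cdh15*, which encodes M-cadherin, was higher in every knockout library (0.53, standard error 0.16, adjusted p = 0.118, edgeR) and was called without control 3. *Myod1*, *Des* and *Pax7* were thus detected in all 6 libraries.

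Muscle differentiation genes were higher in sum in each library labelled cKO than in any control library. The sum was 434, 149 and 349 CPM in control against 636, 1747 and 838 CPM. Of 9 tested genes, all 9 had a log2 fold change above 0 (4293 of 8551 over all genes), with a median of 2.09. An unadjusted p under 0.05 was found for 5 of the 9 (1019 of 8551 over all genes), and 8 were higher without overlap (701 of 8551). In edgeR 1 was called higher (0.468% over all genes), *Tnni2*, which encodes fast troponin I (log2 fold change 2.16, standard error 0.45, adjusted p = 0.00459, edgeR). It was higher in 3 of 3 libraries than in any control library, and its adjusted p was 0.277 without cKO 2. DESeq2 called 1 of the 9, *Acta1* (27 of the 4007 genes with an adjusted p in that tool), and gave no adjusted p for *Tnni2*. In limma-voom 8 of the 9 were called (72 of 8551 over all genes). The part of differentiation in the *Dcn* difference was not tested.

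Of the matrix genes that SLRPs bind, 8 of 19 were tested and 0 were called in edgeR, DESeq2 and limma-voom (4 had an unadjusted p under 0.05 in edgeR, against 1019 of 8551 over all genes). Their median log2 fold change was 0.23, with 7 above 0 and 1 below (4293 and 4258 over all genes). *Col3a1* was at 191 ± 64.5 CPM in control against 255 ± 20.2 CPM (SD, n = 3 each), and its log2 fold change was 0.41 (standard error 0.16, edgeR, adjusted p = 0.266). It was called in 1 of 14 alternatives, without control 3 (adjusted p = 0.00559, edgeR). *Col1a2*, the other chain gene of collagen I, and *Fbln2*, which encodes the matrix glycoprotein fibulin 2, are named after their values were seen. *Col1a2* had 23, 33 and 63 against 60, 55 and 87 counts, and its log2 fold change was 0.85 (standard error 0.25, edgeR, adjusted p = 0.125). It was called in 5 of 14 alternatives, among them those without control 3 and without cKO 1, and its adjusted p ranged from 0.00063 to 0.464. *Fbln2*, with 29, 78 and 90 against 39, 19 and 23 counts, was the 1 gene below 0, and edgeR put it at -1.18 in log2 (standard error 0.31, adjusted p = 0.106). It was called in 6 of 13 alternatives, among them those without control 1, control 2 or cKO 1, and its adjusted p ranged from 6.6e-05 to 0.502. The abundant *Thbs1* and *Col5a2* had log2 fold changes smaller than their standard errors.

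**Figure D4:**
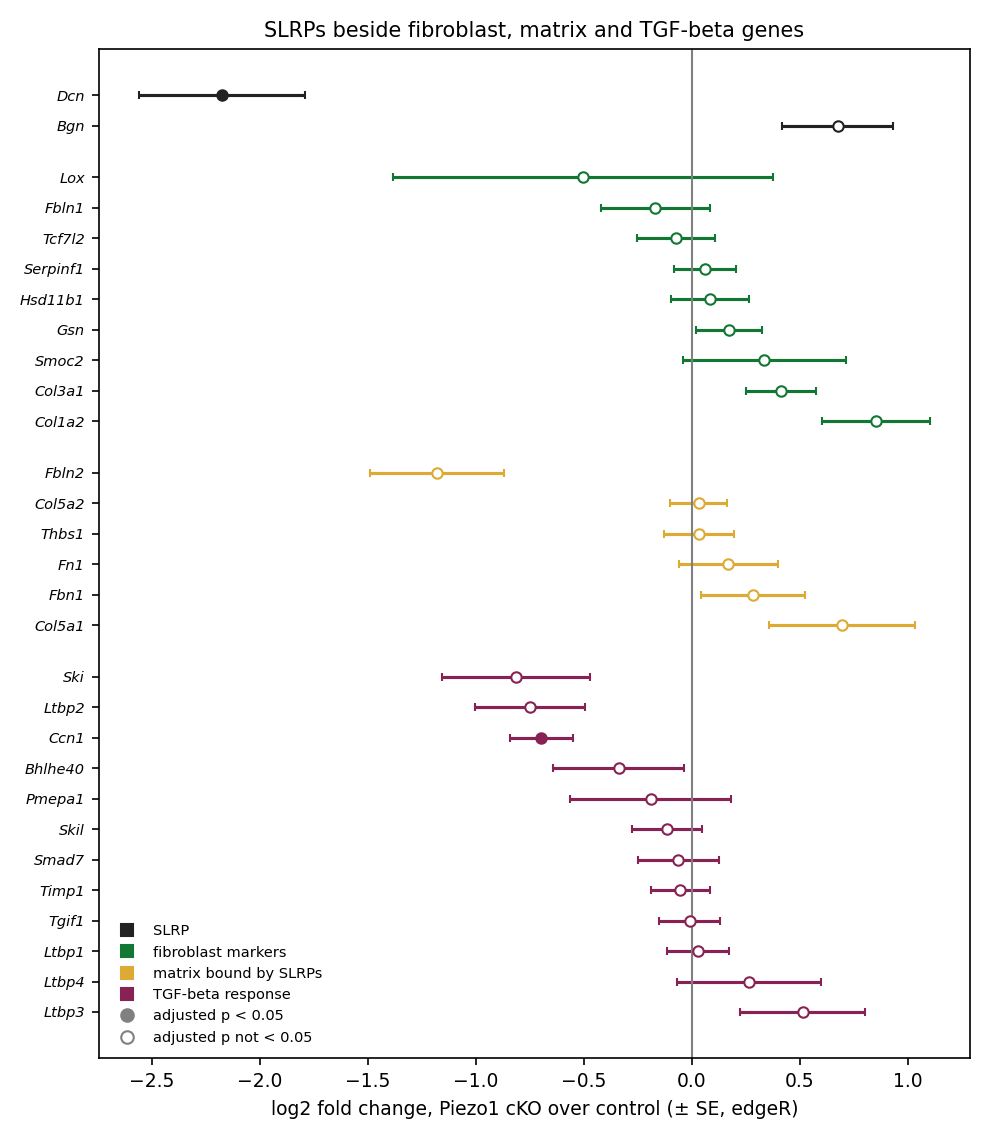
Log2 fold changes (*Piezo1* cKO over control, edgeR) with their standard errors for *Dcn*, *Bgn* and the tested genes reported here of the fibroblast, matrix and TGF-beta response lists; filled points have an adjusted p under 0.05, and *Col1a2* and *Col3a1*, which belong to the first 2 lists, are drawn once. *Dcn* at -2.17 lies below all the other genes drawn, while *Bgn* at 0.68 lies beside *Col1a2* at 0.85.

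Among growth factors and receptors that SLRPs are known to bind, 11 of 17 were tested and 0 were called in edgeR, against 0.784% over all genes (4 had an unadjusted p under 0.05, against 1019 of 8551), with a median log2 fold change of -0.13. *Pdgfa* was lower in every knockout library (log2 fold change -0.40, standard error 0.14, adjusted p = 0.162, edgeR). *Met*, the receptor for hepatocyte growth factor, was at -0.22 (standard error 0.15), and *Ccn4* at 0.36 (standard error 0.17). *Ccn2*, which encodes connective tissue growth factor, had 55, 107 and 155 against 52, 51 and 64 counts (log2 fold change -0.82, standard error 0.24, adjusted p = 0.159, edgeR). It was called in 4 of 14 alternatives, among them those without control 1 and without control 2. Of the TGF-beta ligands, *Tgfb1* had 1 to 5 counts in every library, and *Tgfb3*, named after its values were seen, had 3, 13 and 13 counts in control against 19, 19 and 23 (log2 fold change 1.16, standard error 0.36, adjusted p = 0.107, edgeR). *Mstn*, the gene of myostatin, was not tested.

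Of 15 TGF-beta response genes, 13 were tested, 2 fell, 0 rose and 11 did not pass in edgeR (over all genes 0.316% fell and 0.468% rose). The median log2 fold change was -0.11, with 10 of 13 below 0 (4258 of 8551 over all genes). An unadjusted p under 0.05 was found for 4 of the 13 (1019 of 8551 over all genes), and 3 were lower without overlap (711 of 8551). The list, led by *Ccn1*, summed to 2288, 2297 and 2551 CPM in control against 1909, 1890 and 2117 CPM. This sum was lower in every knockout library (p = 0.1, exact permutation test), and its part in the *Dcn* difference was not tested. *Ccn1*, which encodes a matricellular protein and is also induced by serum and by YAP, had 404, 790 and 657 against 430, 282 and 352 counts. It fell by 0.70 in log2 (standard error 0.15, adjusted p = 0.00593, edgeR), and its CPM levels did not overlap. The call was lost without cKO 2 (adjusted p = 0.179) and without cKO 3 (adjusted p = 0.0523, edgeR). *Timp1*, *Pmepa1* and *Tgif1*, the most abundant of the rest, had log2 fold changes smaller than their standard errors.

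The enzymes that build the sugar chains of SLRPs gave 0 calls in edgeR, DESeq2 and limma-voom, where edgeR called 0.784% of all genes. For chondroitin and dermatan sulphate, the chain type of *Dcn* and *Bgn*, 15 of 23 genes were tested, with a median log2 fold change of -0.060, 4 above 0 and 11 below, and 0 with an unadjusted p under 0.05. *Chpf*, *B4galt7* and *B3gat3* had values smaller than their standard errors, and *Chsy1*, a chondroitin synthase, was at -0.51 (standard error 0.28). The summed level was 566 ± 20.0 and 522 ± 17.0 CPM (SD, n = 3 each), lower in every knockout library (p = 0.1, exact permutation). For keratan sulphate, 4 of 9 were tested (2 with an unadjusted p under 0.05), the summed level was 314 ± 13.7 and 391 ± 16.8 CPM (SD, n = 3 each), higher in every knockout library (p = 0.1, exact permutation), and *Chst2*, a sulphotransferase, was higher in every knockout library (log2 fold change 0.53, standard error 0.15, adjusted p = 0.0801, edgeR) and was called in 3 of 14 alternatives, 1 of them without control 1. Of the proteases and processing factors of SLRPs, 5 of 12 were tested, all 5 had a log2 fold change above 0, 1 had an unadjusted p under 0.05 and 0 were called in edgeR, DESeq2 and limma-voom, with *Mmp14* at 0.39 (standard error 0.19; called without control 3) and *Adamts4* at 0.39 (standard error 0.21). *Pcolce*, which encodes an enhancer of procollagen processing and is named after its values were seen, had 13, 18 and 33 against 26, 38 and 36 counts (log2 fold change 0.73, standard error 0.27, adjusted p = 0.215, edgeR), and was also called without control 3.

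Of 25 other proteoglycans listed, 10 were tested and 8 had a log2 fold change above 0 (4293 of 8551 over all genes). An unadjusted p under 0.05 was found for 5 of the 10 (1019 of 8551 over all genes). Without overlap were 4 in the higher and 1 in the lower direction (701 and 711 of 8551). The list summed to 886, 926 and 926 CPM in control against 1031, 1006 and 978 CPM, higher in every knockout library (p = 0.1, exact permutation test). In edgeR 1 gene rose (0.468% over all genes), *Col18a1*, a basement membrane collagen with heparan sulphate chains. It had 101, 103 and 132 counts in control against 192, 164 and 169 (log2 fold change 0.72, standard error 0.15, adjusted p = 0.00333, edgeR), higher in 3 of 3, and its adjusted p was 0.0622 without cKO 2. *Sdc4*, a heparan sulphate proteoglycan of the satellite cell surface, was lower in every knockout library (-0.53, standard error 0.15) without passing (adjusted p = 0.0617, edgeR). *Sdc4* was called in 5 of 14 alternatives, among them those without control 1, control 3 or cKO 1. *Vcan*, the large chondroitin sulphate proteoglycan versican, named after its values were seen, had 13, 17 and 19 against 21, 32 and 23 counts (0.72, standard error 0.30, adjusted p = 0.282, edgeR).

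Over the 6 libraries, the genes whose log2 CPM was most like that of *Dcn* were *Gm27219*, *Sdcbp*, *Cenpq*, *Stc2* and *Strbp*, with Pearson correlations from 0.993 to 0.977. This is a description over 6 points of low counts, and 69 of the genes tested reached a correlation of 0.9 or more. *Sdcbp* encodes syntenin, an adaptor that binds syndecans, and had 223, 284 and 277 against 245, 231 and 228 counts, a far smaller difference than that of *Dcn*. The correlation of *Dcn* was -0.54 with *Bgn*, -0.63 with *Col1a2* and -0.42 with *Col3a1*. After removal of the group means, the genes most like *Dcn* were *Gosr2*, *Zfp821*, *Dph6*, *Timm29* and *Stk25* (0.998 to 0.987), and the correlation with *Col3a1* was 0.68 and that with *Bgn* 0.28.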

How the data were processed

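The authors mapped the reads with STAR 2.7.9a to GRCm38, assigned them with featureCounts 2.0.1 and counted UMIs with UMI-tools 1.1.1. The deposited table holds these counts without normalisation, with 1 column per library, and how multi-mapping reads and strand were treated is not given in the sources used here. Reads that *Dcn* shares with a copy elsewhere were not examined.

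Counts were analysed with edgeR 4.0.16 in R 4.3.3 (TMM factors, robust quasi-likelihood fit, group as the only term, Benjamini-Hochberg correction, threshold 0.05). Its filter with a minimum count of 10 kept 8551 genes, and 1407 of 20654 genes had 0 counts in every library. DESeq2 1.42.0 and limma 3.58.1 (voom) were alternatives. Log2 CPM for correlations used a prior count of 2. Intervals of pooled counts are exact conditional 95% intervals. Pairs of libraries of 1 group had chi-square statistics between 1.64 and 2.61 per degree of freedom, so no pair agreed within sampling noise. Coordinates are those of GENCODE M21 on GRCm38. The scripts were tested on simulated counts.

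The members, gene lists and tests were chosen with earlier results of these data known. Genes named were the 9 members, listed SLRP relatives with counts, called genes and the 4 most abundant tested genes of each list, the first 3 markers of each cell type, the 5 genes most like *Dcn* and chromosomal neighbours. Some of these are given only within a count, and log2 fold changes within their standard error are not printed for listed genes. Some genes of these lists enter the counts and sums but are not reported here by name.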

Additional observations from a re-analysis of the deposited data

How the results depend on the processing

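The log2 fold change of *Dcn* lay between -2.55 and -1.87 with a library left out, a description from which nothing is read since *Dcn* was selected on this contrast. With at least 10 counts in every library *Dcn* was not tested. *Bgn* stayed between 0.37 and 1.096 and passed in 2 of 14, without control 3 and without cKO 1. The summed SLRP level had a log2 ratio of 0.088, which was 0.53 without *Dcn* and between -0.12 and 0.39 with a library left out. The fibroblast sum had a log2 ratio of 0.12, between -0.0022 and 0.24 with a library left out. The number of genes called, 67, was 129 with no filter, 27 in DESeq2 (12 higher, 15 lower), 124 at an adjusted p under 0.1, and ranged from 6 (cKO 2 left out) to 155 (cKO 1 left out). Listed genes called were 4, against 13 with no filter, 8 with at least 10 counts in every library, 11 in limma-voom, and 2 to 10 with a library left out. The cause of these shifts was not tested. With group means removed, control and cKO libraries 1, 2 and 3 correlated at -0.14, -0.20 and 0.012. At 3 libraries a group and this depth, such values cannot decide whether libraries of equal number were paired. Nothing is read from them. Under a replicate block 46 genes and 6 listed genes were called, *Dcn* was at -2.16 (standard error 0.41) and *Bgn* at 0.72 (standard error 0.24), and *Ccn1* was no longer called (adjusted p = 0.0716, edgeR). Depth limits 6 of the 8 SLRP genes to a description.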
